A study of Mus musculus with 4 samples.

Results

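The collagen chain genes were examined in lymphatic endothelial cells, which form the inner lining of lymphatic vessels, taken from the lungs of newborn mice. A row of the count table was taken as a collagen chain where its symbol was Col, a number, the letter a and a number, which gave 44 of 24421 rows. Of these, 41 had a count in at least 1 library, and Col6a4, Col19a1 and Col28a1 had 0 in every library. The study compared Jun-Ctrl mice, Prox1-CreER;Junf/+;Rosa26-mTmG, with Jun-cKO mice, Prox1-CreER;Junf/f;Rosa26-mTmG, at postnatal day 0. Both genotypes carried the Cre recombinase, which is driven by Prox1 and needs tamoxifen to act, and the reporter that turns green after recombination. The control animals also carried 1 floxed Jun allele, so no group without a floxed allele was compared. Tamoxifen dosing is not given in the sources used here. The sort kept cells with CD31 and GFP and without CD45, with 3 to 5 mice pooled per group, and the series' text describes cells of a group as mixed before RNA amplification. Each group had 2 libraries, called library 1 and library 2 here. The sources do not say whether these came from separate sorts, so the p-values rest on library-to-library spread that may be technical.

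Collagens are secreted proteins in which a trio of chains winds into a triple helix, with each chain made by its own gene. Fibrillar collagens, such as types I, III and V, assemble into the tensile fibres of connective tissue, and in the lung they are made mostly by fibroblasts and smooth muscle. Type IV collagen forms the sheet-like network of basement membranes, where its chains combine in set trios: alpha 1 with alpha 2, alpha 3 with alpha 4 and alpha 5, and alpha 5 with alpha 6. Types XV and XVIII are basement membrane collagens that carry glycan chains, and type VI forms beaded microfibrils between basement membrane and stroma. Lymphatic capillaries have a thin, interrupted basement membrane, and collecting vessels have a fuller one. Jun is a subunit of AP-1, a transcription factor that binds the motif TGANTCA.

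The DNA before the start sites of 5 collagen genes is shown because the results below turn on them: Col1a2 and the chromosome 10 pair Col6a1 and Col6a2, which were lower together, Col4a4 with its head-to-head partner Col4a3, which had the largest fold difference among collagens averaging 50 counts or more, and Col4a5, the single collagen called higher. The sequences are from the RefSeq promoter table on GRCm38.p6, which held 38 windows of 300 bases for the collagen rows and matched 35 of the 44 symbols, all but Col1a1, Col2a1, Col4a3, Col5a2, Col9a3, Col12a1, Col14a1, Col22a1 and Col26a1. Only bases outside every GENCODE exon are given, 5' to 3' on the gene's strand, with matches on either strand to the 4 motifs counted below in capitals. The Col1a2 bases lie in an intron of a longer GENCODE transcript, and the Col6a1 and Col4a4 stretches hold no match.
Col1a2, plus strand, chr6:4505370-4505492: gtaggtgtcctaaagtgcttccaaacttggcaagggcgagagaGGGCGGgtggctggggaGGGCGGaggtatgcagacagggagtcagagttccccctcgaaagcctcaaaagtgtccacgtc
Col6a1, minus strand, chr10:76726169-76726294: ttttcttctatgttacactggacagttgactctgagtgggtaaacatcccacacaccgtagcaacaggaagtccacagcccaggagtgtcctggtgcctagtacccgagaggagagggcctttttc
Col6a2, minus strand, chr10:76623631-76623880: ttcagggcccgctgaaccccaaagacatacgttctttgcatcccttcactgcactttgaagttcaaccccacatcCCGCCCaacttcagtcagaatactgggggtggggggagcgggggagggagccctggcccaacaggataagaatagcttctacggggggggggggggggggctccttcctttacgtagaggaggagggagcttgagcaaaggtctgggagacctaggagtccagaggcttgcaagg
Col4a4, minus strand, the whole interval between the Col4a4 and Col4a3 starts, chr1:82586850-82586920: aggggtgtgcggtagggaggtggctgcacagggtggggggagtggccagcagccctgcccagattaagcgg
Col4a5, plus strand, chrX:141475169-141475384: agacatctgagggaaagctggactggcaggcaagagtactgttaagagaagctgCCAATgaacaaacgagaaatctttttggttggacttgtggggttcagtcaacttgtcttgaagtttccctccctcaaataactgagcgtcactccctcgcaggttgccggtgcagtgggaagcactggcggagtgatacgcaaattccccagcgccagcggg

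Among the collagen windows, 1 of 38 held TGANTCA, against 7.81% of the 32851 promoter windows of the same length in the table. That match was in the Col6a1 window, 90 bases before the RefSeq start, and lay inside the first exon of the GENCODE model, which starts farther upstream. With 10 bases on each side, at chr10:76726118-76726144 on the minus strand, it read as follows, the match in capitals.
Col6a1 site: gctgatgctgTGACTCActcagctttg
The motif GGGCGG, read by Sp1-family factors, was in 23 of 38 collagen windows, or 60.5%, against 35.7% of all windows. CCAAT was in 13 of 38, or 34.2%, against 37.4%, and TATAAA in 5 of 38, or 13.2%, against 13.6%. Matches of different motifs can share letters and were counted separately. A match is a description of the letters in the window and shows no binding.

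The libraries held 6483514 to 16037416 counts, library 1 being the deeper in each group. Jun itself, which checks the labels, had 472 and 433 CPM (counts scaled to library size by the TMM method) in Jun-Ctrl, against 524 and 475 CPM in the libraries labelled Jun-cKO. It was therefore not lower where both alleles should be floxed, and its log2 fold change was 0.14 ± 0.12 (SE), with a Benjamini-Hochberg adjusted p of 0.354 in the quasi-likelihood test of edgeR and a 95% interval of the ratio from 0.935 to 1.30. With an offset for transcript GC content, used again below, Jun was called higher, at 0.41 and an adjusted p of 0.00327. The part of Jun that Cre removes is not given in the sources used here. For this reason the 2 libraries are called Jun-cKO-labelled throughout, and every direction below is that label against Jun-Ctrl. Lymphatic identity was present in all 4 libraries: the summed level of 10 lymphatic endothelium markers, among them Lyve1, Reln and Flt4, was 13717 and 12437 CPM against 17856 and 18408 CPM, with Ccl21a at 0 in every library. Lyve1 held the largest part of that sum. Of the 9 tested markers, Lyve1, Reln and Mmrn1 were called higher. Flt4 was called lower, at 1677 and 1499 CPM against 1201 and 897 CPM.

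Collagens took 0.486 and 0.499% of all counts in Jun-Ctrl, against 0.362 and 0.346% under the Jun-cKO label. Most of this came from few genes. Type IV chains made up 63.3 and 64.6% of collagen counts in Jun-Ctrl, against 68.3 and 69.9% under the Jun-cKO label, and Col4a1 alone made up 43.3 and 44.9% against 50.8 and 49.8%. Fibrillar collagens held 9.34 and 8.44% of collagen counts against 6.40 and 6.73%, and collagen VI held 0.979 and 1.04% against 0.352 and 0.418%.

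Per kilobase of the deposited gene length, Col4a1 stood first in both groups, at 309 and 336 CPM per kilobase in Jun-Ctrl, against 283 and 266 under the Jun-cKO label. Col18a1 stood at rank 2, at 172 and 181 against 119.5 and 107 CPM per kilobase, Col4a2 at rank 3, at 137 and 140.4 against 91.6 and 100.5, and Col23a1 at rank 4, at 37.0 and 35.6 against 35.6 and 28.7. Neighbours among these first 4 did not overlap in either group. Lower in the order, Col1a1 and Col3a1, ranks 7 and 8 in Jun-Ctrl, overlapped, as did Col6a1 and Col4a5, ranks 9 and 10. In the Jun-cKO-labelled libraries Col4a5 stood at rank 6, and its values overlapped those of Col1a2 at rank 7. Col4a4 stood at rank 13 in Jun-Ctrl and 25 under the Jun-cKO label, Col6a2 at 12 and 20, and Col4a3 at 17 and 23.

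**Figure D1:**
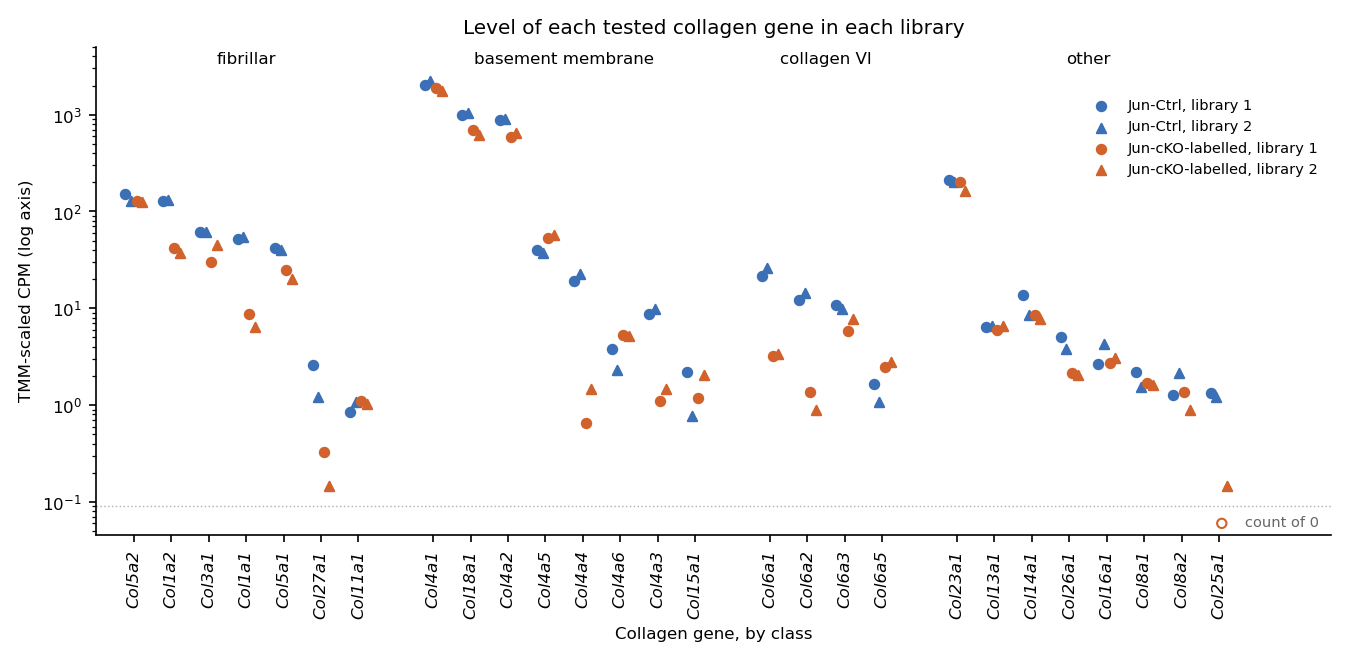
Level of each of the 27 tested collagen genes in each library, in TMM-scaled CPM on a log axis, by class; circles are library 1 and triangles library 2 of each group. Col4a1, Col18a1 and Col4a2 sit highest, and Col4a4, Col6a2, Col27a1 and Col25a1 show the widest gaps between the groups.

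A filter on low counts, which asks for about 0.890 CPM in at least 2 libraries, left 27 collagens of the 12656 genes tested. Of the 27, 14 were called lower in the Jun-cKO-labelled libraries and 1 higher at an adjusted p under 0.05 in edgeR's quasi-likelihood test. Over all tested genes 22.5% were called lower and 19.0% higher. The collagen counts come to 51.9% lower and 3.70% higher, and the median log2 fold change was -0.53 for the collagens and 0.01 for all tested genes. With the offset for transcript GC content the collagen median was -0.30, and that of all tested genes 0.02. It was -0.70 for the collagens with a filter of 50 counts in 2 libraries and -0.75 without Jun-Ctrl library 2. The remaining 17 collagens had at most 29 counts in any library. Since a gene seen in 1 group only can pass the filter through that group, the counts over tested members favour genes that differ: Col4a4, Col6a2, Col25a1, Col27a1 and Col8a2 passed through Jun-Ctrl alone, and Col11a1 and Col15a1 through the Jun-cKO-labelled libraries alone. Among the 20 that passed in both groups, 10 were lower and 1 higher. The share over all genes that passed in both is not given here. Shares over all tested genes also varied with mean level. Under 4 CPM, 32.3% of genes were lower and 8.70% higher, with 3 of 9 collagens lower, near that share, and 0 higher. From 4 to 64 CPM they were 22.75 and 17.5%, with 8 of 12 collagens lower and 1 higher. Above 64 CPM they were 14.3 and 30.2%, with 3 of 6 collagens lower and 0 higher. The groups did not overlap for 18 tested collagens with the Jun-cKO-labelled libraries below and for 3 with them above, where all tested genes gave 35.9% below and 35.4% above. In bulk RNA, fewer cells of a type and less RNA per cell cannot be told apart.

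Of 7 tested fibrillar chains, 5 were called lower and none higher, against 22.5% lower and 19.0% higher over all tested genes. Col27a1, called lower, had passed the filter through Jun-Ctrl alone, and Col11a1, not called, through the Jun-cKO-labelled libraries alone. The class median log2 fold change was -0.84. That median was -0.65 with the GC offset, -0.75 with no filter and -1.41 without Jun-cKO-labelled library 1. Their summed level was 442 and 418 CPM in Jun-Ctrl, against 236 and 238 CPM under the Jun-cKO label. Both chains of type I collagen, the main protein of tensile fibres, fell. Col1a1 (chr11:94936224-94953042, plus strand) had 52.0 and 54.3 CPM against 8.65 and 6.35 CPM, a 6.82-fold decrease (log2 fold change -2.77 ± 0.17 SE, adjusted p 1.68e-18). Col1a2 (chr6:4504814-4541544, plus strand) had 129.7 and 130.5 CPM against 42.1 and 37.5 CPM, a 3.25-fold decrease (-1.70 ± 0.12 SE, adjusted p 7.98e-16). For each of these genes the libraries of a group lay close together and far from the other group.

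Col3a1, whose protein forms fibres with type I collagen in elastic tissues, had 61.1 and 61.8 CPM in Jun-Ctrl against 30.0 and 44.6 CPM, a log2 fold change of -0.75 ± 0.14 (SE) with an adjusted p of 3.73e-05. Here the Jun-cKO-labelled libraries differed from each other, 37.3 ± 10.3 CPM (SD, n = 2), but both lay below Jun-Ctrl. Col5a1, the type V chain that seeds fibrils, had 41.8 and 39.8 CPM against 24.8 and 20.2 CPM, -0.84 ± 0.15 (SE), adjusted p 1.25e-05. Its partner chain Col5a2, per kilobase the highest fibrillar chain in the Jun-cKO-labelled libraries, was not called, at 153.1 and 128.4 CPM against 128.1 and 126.7 CPM. The ratio of the group levels for Col5a2 was 0.902, with a 95% interval from 0.766 to 1.06. Col3a1 and Col5a2 are tail-to-tail neighbours on chromosome 1, 24614 bases apart.

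Col27a1, a fibrillar chain known from cartilage, was called lower at low counts, with 2.61 and 1.22 CPM against 0.328 and 0.148 CPM (log2 fold change -2.92, adjusted p 7.98e-05). That value was -3.74 without Jun-cKO-labelled library 1, and the gene did not pass the filter without Jun-Ctrl library 1. Col11a1, a minor fibrillar chain, was tested and not called, at 0.24 on the log2 scale. Col24a1, Col2a1, Col11a2 and Col5a3 were too low to test. Part of the exons of Col5a1 lies opposite the antisense transcripts 2810430I11Rik and Gm13372, over 99 and 113 bases, and the library kit does not mark strand.

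Basement membrane collagens divided by chain. The most abundant chain, Col4a1, was not called, Col4a2 and Col18a1 were modestly lower, Col4a3 and Col4a4 were lower by a wide margin, and Col4a5 was higher. Over the class, 4 of 8 tested chains were lower and 1 higher, with a median log2 fold change of -0.38. All tested genes gave 22.5% lower and 19.0% higher. Col4a4, called lower, had passed the filter through Jun-Ctrl alone, and Col15a1, not called, through the Jun-cKO-labelled libraries alone. The summed level was 3995 and 4248 CPM in Jun-Ctrl, against 3214 and 3094 CPM under the Jun-cKO label.

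Col4a1 and Col4a2, the pair that forms the common basement membrane network, start head to head on chromosome 8 with a 22-base overlap (chr8:11198423-11312826, minus strand, and chr8:11312805-11449287, plus strand). Col4a1 had 2046 and 2224 CPM in Jun-Ctrl, against 1873 and 1759 CPM under the Jun-cKO label. These did not overlap, but the difference was not called, with a ratio of 0.851 and a 95% interval from 0.709 to 1.02. Col4a2 had 878 and 902 CPM against 588 and 646 CPM, a log2 fold change of -0.53 ± 0.12 (SE) with an adjusted p of 0.000482. Col18a1, the source of endostatin, had 997 and 1049 CPM against 692 and 622 CPM, -0.64 ± 0.12 (SE), adjusted p 4.71e-05. The transcripts of Col4a2 and Col18a1 are rich in G and C, at 60.6 and 60.8%. With an offset for transcript GC content in the same edgeR test, the log2 fold changes were -0.01 (adjusted p 0.949) for Col4a2 and -0.12 (adjusted p 0.429) for Col18a1, and Col4a1 turned to 0.15 (adjusted p 0.331), so the calls of Col4a2 and Col18a1 held only without that offset.

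Col4a3 and Col4a4, whose chains join alpha 5 in the basement membranes of the kidney glomerulus and the lung alveolus, start head to head on chromosome 1 with a 71-base interval (chr1:82586921-82722059, plus strand, and chr1:82448423-82586849, minus strand). Col4a4 had 314 and 147 counts in Jun-Ctrl against 10 and 10 counts, or 19.0 and 22.5 CPM against 0.655 and 1.48 CPM. The decrease was 22.0-fold (log2 fold change -4.46 ± 0.29 SE, adjusted p 1.17e-17), and the log2 value was -3.78 without Jun-cKO-labelled library 1. Col4a3 had 145 and 64 counts against 17 and 10 counts, or 8.79 and 9.79 CPM against 1.11 and 1.48 CPM, a 7.39-fold decrease (log2 fold change -2.88 ± 0.31 SE, adjusted p 1.67e-10). Both chains were detected in all 4 libraries. Neither pair of groups overlapped, as for the 35.9% of all tested genes that also lay below without overlap. Col4a3 shares 563 exonic bases, 5.65% of its own, with the opposite-strand transcript C430014B12Rik, and reads there cannot be assigned to 1 of them. Beside these chains, Ager, a marker of the alveolar type I epithelial cell, had 130.9 and 164.6 CPM against 47.4 and 45.2 CPM, and Sftpc, a marker of alveolar type II cells, 1267 and 1333 CPM against 112 and 116 CPM. The part of those cells in the fall of Col4a3 and Col4a4 was not tested.

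Col4a5 and Col4a6 also start head to head, on the X chromosome with 1308 bases between them. Col4a5 (chrX:141475385-141689234, plus strand) was the single collagen called higher, at 39.5 and 37.3 CPM in Jun-Ctrl, against 52.6 and 56.8 CPM under the Jun-cKO label (log2 fold change 0.50 ± 0.13 SE, adjusted p 0.00215). Col4a6 (chrX:141165403-141474076, minus strand) had 3.76 and 2.29 CPM against 5.31 and 5.17 CPM, a ratio of 1.62 with a 95% interval from 1.08 to 2.43, and missed the call at an adjusted p of 0.0507. With the GC offset it was called higher, at 0.84 and an adjusted p of 0.0192. Within type IV collagen, the chains alpha 1 to alpha 4 lay below Jun-Ctrl in both libraries, and alpha 5 and alpha 6 lay above it. Such placement was common, at 35.9% of all tested genes below and 35.4% above, and is by itself no result about these chains. Col15a1, the relative of Col18a1, was not called at -0.18 on the log2 scale, and Col7a1, the anchoring fibril collagen of skin, had 18 counts in Jun-Ctrl, against 3 under the Jun-cKO label and was not tested.

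**Figure D2:**
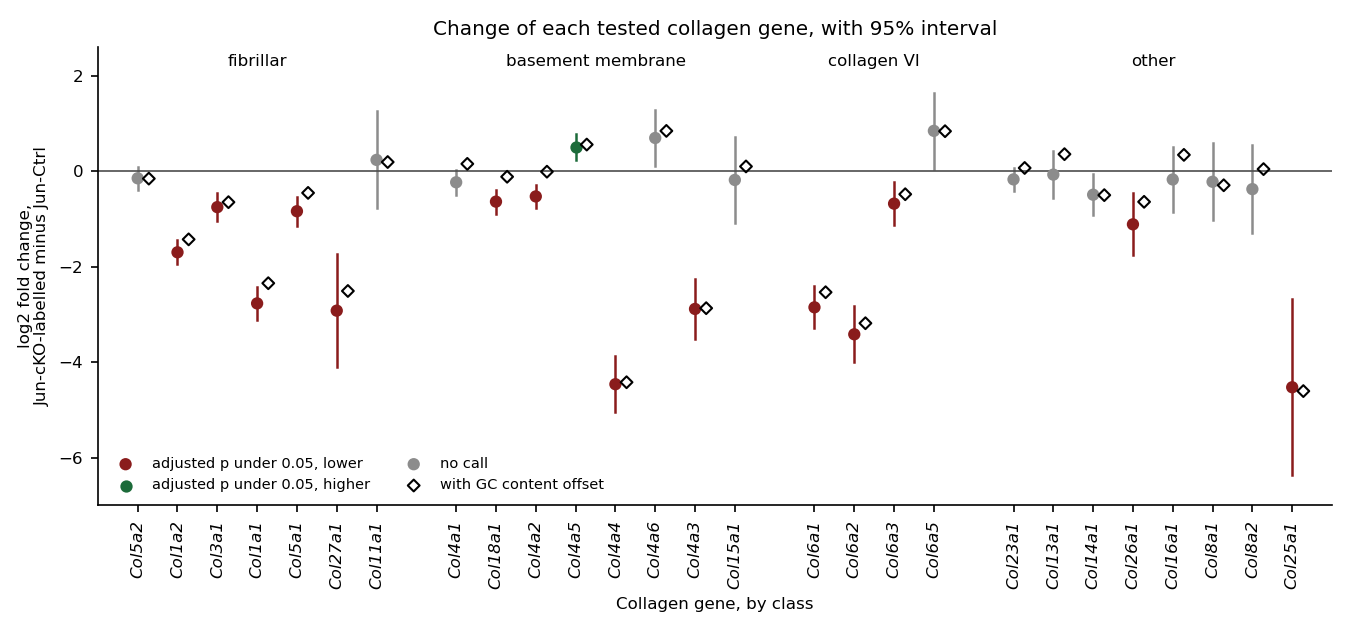
Log2 fold change of each tested collagen gene, Jun-cKO-labelled minus Jun-Ctrl, from edgeR with its 95% interval; red is called lower, green higher, grey not called, and the open diamonds are the same genes with an offset for transcript GC content. The diamonds of Col4a2 and Col18a1 lie at -0.01 and -0.12, while Col1a1, Col4a4 and Col6a2 stay below -2.

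Of 4 tested collagen VI chains, 3 were called lower and none higher, against 22.5% lower and 19.0% higher over all tested genes. The median log2 fold change was -1.77 over these 4, with Col6a2 among them having passed through Jun-Ctrl alone, and -0.67 with no filter. The summed level was 46.3 and 51.7 CPM in Jun-Ctrl against 13.0 and 14.8 CPM. Col6a1 and Col6a2, the short chains that every collagen VI trimer needs, lie on the same strand of chromosome 10, 85161 bases apart. Col6a1 (chr10:76708792-76726168, minus strand) had 21.7 and 26.3 CPM against 3.21 and 3.40 CPM, a 7.22-fold decrease (log2 fold change -2.85 ± 0.22 SE, adjusted p 3.67e-15). Col6a2 (chr10:76595762-76623630, minus strand) had 12.1 and 14.4 CPM against 1.38 and 0.886 CPM, a 10.7-fold decrease (-3.42 ± 0.29 SE, adjusted p 1.43e-13). The groups of both genes stood far apart.

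Col6a3, the long chain that completes the trimer, fell from 10.9 and 9.79 CPM to 5.77 and 7.68 CPM (log2 fold change -0.68 ± 0.22 SE, adjusted p 0.0120). Its call was lost without Jun-Ctrl library 1 (adjusted p 0.166), without Jun-cKO-labelled library 1 (0.183), with the GC offset (0.0770) and with the DESeq2 Wald test (0.111). Col6a5, an alternative to that long chain, had 1.64 and 1.07 CPM against 2.49 and 2.80 CPM and was not called (0.84 on the log2 scale, adjusted p 0.0795). Col6a6 was too low to test.

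The other collagens, which include transmembrane, fibril-associated and network-forming types, had 2 of 8 tested chains called lower and none higher. Against 22.5% lower and 19.0% higher over all tested genes, the share lower lies near the background and is no result about the class. Col25a1, called lower, and Col8a2, not called, had passed the filter through Jun-Ctrl alone. The class median log2 fold change was -0.30. It was -0.16 without Jun-Ctrl library 1, -0.58 without Jun-Ctrl library 2, -0.46 without Jun-cKO-labelled library 1 and -0.93 with no filter. With the GC offset it was -0.13. Their summed level was 248 and 235 CPM in Jun-Ctrl against 226 and 186.5 CPM, most of it from Col23a1, a transmembrane collagen. Col23a1 (chr11:51289920-51583918, plus strand) had 209.5 and 202 CPM against 201 and 163 CPM, a ratio of 0.888 with a 95% interval from 0.753 to 1.05. Without Jun-cKO-labelled library 1 it was called lower (log2 fold change -0.34, adjusted p 0.0348). Col13a1, another transmembrane collagen, had 6.43 and 6.58 CPM against 5.96 and 6.50 CPM, and the groups overlapped. Its ratio was 0.952, with an interval from 0.680 to 1.33.

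Col14a1, a fibril-associated collagen, had 13.7 and 8.57 CPM against 8.52 and 7.83 CPM and was not called (-0.49, adjusted p 0.0603), with the Jun-Ctrl libraries far apart at 11.1 ± 3.59 CPM (SD, n = 2). It was called lower without Jun-Ctrl library 2 (-0.75, adjusted p 0.0171) and stood at -0.07 (adjusted p 0.882) without Jun-Ctrl library 1. It was also called with upper-quartile scaling, with library totals, with no filter, with a filter of 50 counts in 2 libraries, and with the GC offset and replicate block together. The called chains of this class were Col26a1 and Col25a1. Col26a1 had 5.09 and 3.83 CPM against 2.16 and 2.07 CPM (-1.11 ± 0.32 SE, adjusted p 0.00456), a call that was lost without Jun-Ctrl library 1 (adjusted p 0.192) and with the GC offset (0.111). Col25a1, a transmembrane collagen known from motor neurons, had 22 and 8 counts in Jun-Ctrl, against 0 and 1 under the Jun-cKO label, 28.7-fold lower by counts with a counting interval from 4.77 to 1171 (adjusted p 8.45e-05 in the edgeR test), and it did not pass the filter without Jun-Ctrl library 1. Its fitted log2 value was -4.52, and -7.06 without Jun-cKO-labelled library 2, which left the group at 0. Without Jun-Ctrl library 1 none of the class was called. Col16a1, Col8a1 and Col8a2 were tested and not called. Among the untested rows, Col22a1 had 18 counts in Jun-Ctrl and none under the Jun-cKO label, and so was at least 5.74-fold lower when the latter group is set at 3 counts. The other untested rows of the class were Col9a1, Col9a2, Col9a3, Col10a1, Col12a1, Col17a1 and Col20a1, beside Col19a1 and Col28a1 at 0.

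Partner chains combine in set proportions in the trimer protein, and these proportions need not hold for their transcripts. The transcript ratio between partner genes was computed within each library from counts per base, which needs no scaling of library size. It carries no correction for transcript GC content, which differs between partners such as Col4a1, at 57.7%, and Col4a2, at 60.6%. Col1a1 stood at 0.439 and 0.456 of Col1a2 in Jun-Ctrl, against at 0.225 and 0.185 under the Jun-cKO label, lower in both of the latter. Col4a1 to Col4a2 was 2.26 and 2.40 against 3.09 and 2.65. Col4a3 to Col4a4 was 0.419 and 0.395 against 1.54 and 0.907, the ratio of the latter group resting on 10 Col4a4 counts in each library. Col6a1 to Col6a2 was 1.68 and 1.72 against 2.19 and 3.60, and Col6a3 to Col6a1 was 0.183 and 0.137 against 0.659 and 0.829. For Col4a5 to Col4a6, at 10.8 and 16.7 against 10.2 and 11.3, the groups overlapped. Col5a1 to Col5a2, which is not drawn, was 0.215 and 0.244 against 0.153 and 0.126. The share of other gene pairs whose groups do not overlap is not given here, so non-overlap is no result about these pairs. With 2 libraries a group an exact permutation test cannot go below a two-sided p of 0.333, so no test of these ratios is given.

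**Figure D3:**
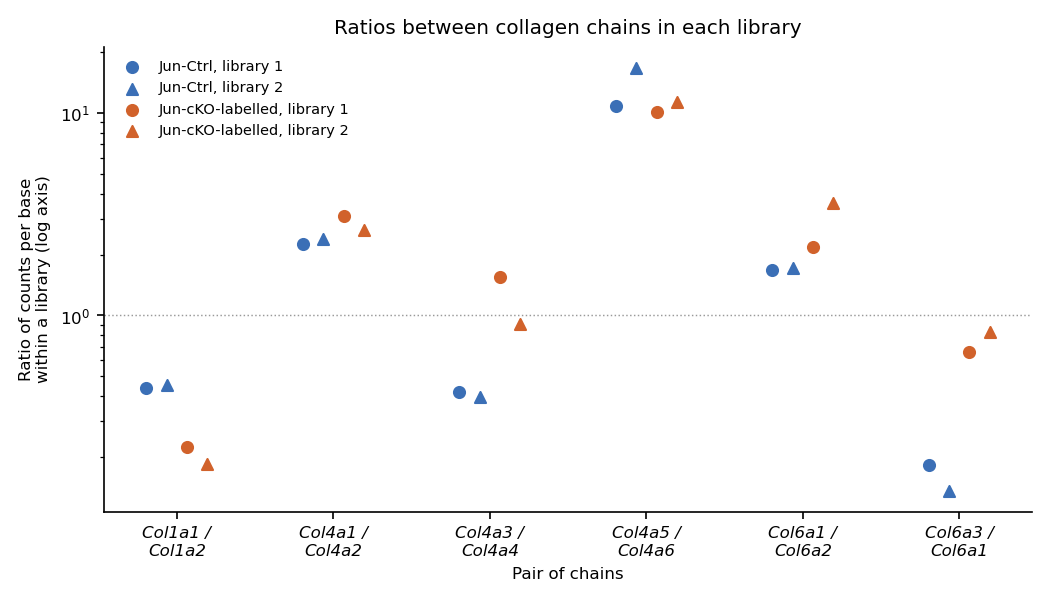
Ratio of counts per base between partner chains in each library, on a log axis; circles are library 1 and triangles library 2, and the dotted line marks equal counts per base. The Col1a1 to Col1a2 ratio is lower and the Col6a3 to Col6a1 ratio higher in both Jun-cKO-labelled libraries, and the Col4a5 to Col4a6 ratio overlaps.

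Collagen transcripts are rich in G and C, and the libraries differed along GC content. The median GC content was 55.2% for the 27 tested collagens and 49.7% for tested genes, and over the 12188 tested genes with a known value, higher GC content went with a lower log2 fold change (Spearman's rho -0.338, a description over genes that share libraries). Among genes of at least 55% GC, 43.6% were called lower, and of the 15 collagens in that range 9 were. Between 50 and 55% GC, 25.6% of genes and 4 of 6 collagens were lower, and under 50% GC, 12.2% of genes and 1 of 6 collagens. The lower collagens of each range include chains that passed the filter through Jun-Ctrl alone. These were Col27a1 and Col6a2 at 55% or more, Col4a4 between 50 and 55%, and Col25a1 under 50%. They are also among those lower with the GC offset. With the GC offset, 10 collagens were lower and 2 higher, when 2403 genes were lower and 2421 higher of 12188. The 10 lower were Col1a1 (-2.35), Col1a2 (-1.43), Col3a1 (-0.65), Col5a1 (-0.46), Col27a1 (-2.51), Col4a3 (-2.87), Col4a4 (-4.42), Col6a1 (-2.54), Col6a2 (-3.18) and Col25a1 (-4.61). The 2 higher were Col4a5 (0.56) and Col4a6 (0.84). With the offset, 2 basement membrane chains were lower and 2 higher, and the class median was 0.04.

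Lists of genes that make, export, trim, crosslink and bind collagen held calls in both directions, to be read against the 22.5% lower and 19.0% higher over all tested genes. Of 17 tested genes for synthesis and folding, 4 were lower and 3 higher, with a median of 0.10 on the log2 scale, and with the GC offset 7 were higher. These shares, like those of procollagen export, lie near the background and are no result about either list. Fkbp10, a collagen chaperone, was lower, with 141.6 and 142.4 CPM against 83.3 and 75.9 CPM (-0.83 ± 0.12 SE, adjusted p 1.37e-07), and P4ha3, a prolyl hydroxylase subunit, was lower at low counts (-2.42, adjusted p 3.23e-05, and -3.37 without Jun-cKO-labelled library 1). P4ha1, another such subunit, was lower by -0.52 (adjusted p 0.00528), a call lost without Jun-Ctrl library 1 (0.132). Plod2, which hydroxylates the lysines used for crosslinks, rose, with 30.3 and 26.3 CPM against 50.9 and 44.6 CPM (0.75 ± 0.14 SE, adjusted p 3.25e-05). Of 10 tested genes for procollagen export, 2 were lower and 3 higher, with a median of 0.02. Creb3l1 (-2.11) and Creb3l2 (-1.25), transcription factors of the secretory pathway, fell, and the vesicle coat genes Sec23a (0.53) and Sec24d (0.39) rose. The Creb3l1 value was -3.34 without Jun-cKO-labelled library 1, and the Sec24d call was lost without Jun-Ctrl library 2 (adjusted p 0.166).

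Trimming and crosslinking had 6 of 13 tested genes lower and 2 higher, with a median of -0.02. Loxl1, a lysyl oxidase known for its role in elastic fibres, had 5.82 and 6.89 CPM against 0.328 and 0.295 CPM, a 19.0-fold decrease (log2 fold change -4.25 ± 0.44 SE, adjusted p 6.73e-11). Lox, the lysyl oxidase of fibrillar collagen, had 28.1 and 28.5 CPM against 12.4 and 7.38 CPM (-1.44 ± 0.18 SE, adjusted p 1.49e-08). Bmp1, which removes the C-terminal propeptide of fibrillar procollagens, had 139.4 and 179.8 CPM against 84.3 and 78.4 CPM (-0.96 ± 0.12 SE, adjusted p 1.47e-08). Adamts2, which removes the N-terminal propeptide, was lower by -1.29 (adjusted p 0.000169), but not without Jun-Ctrl library 1 (0.110). For Loxl1, Lox and Bmp1 both Jun-cKO-labelled libraries lay below both Jun-Ctrl libraries, as they did for 35.9% of all tested genes. Without Jun-Ctrl library 1, 3 genes of this list were lower and none higher, and with the GC offset 4 were higher.

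Of 6 tested proteoglycans that bind fibrils, 2 were lower and 1 higher, with a median of -0.52, and with the GC offset 4 were lower. Aspn (-1.41) and Fmod (-2.49), small leucine-rich proteoglycans, fell, and Prelp, a basement membrane anchor, rose by 0.37. The Aspn value was -2.13 without Jun-cKO-labelled library 1. Each of these calls was lost when at least 1 library was left out: the adjusted p was 0.0987 for Aspn without Jun-Ctrl library 1, 0.0571 and 0.0994 for Fmod without Jun-Ctrl library 2 and Jun-cKO-labelled library 1, and 0.124, 0.0961 and 0.160 for Prelp without Jun-Ctrl library 1, Jun-Ctrl library 2 and Jun-cKO-labelled library 1. Of 9 tested collagen receptors, 3 were lower and 3 higher, with a median of 0.28. Itga1, the integrin subunit that binds type IV collagen, rose from 4.31 and 1.99 CPM to 9.44 and 9.15 CPM (1.41 ± 0.26 SE, adjusted p 2.38e-05, and 2.21 without Jun-Ctrl library 1), and Cd93, an endothelial membrane protein, rose by 0.40 (adjusted p 0.00360). Mrc2, the uptake receptor for collagen fragments, had 2.61 and 4.13 CPM against 0.590 and 0.295 CPM (-2.66 ± 0.48 SE, adjusted p 1.65e-05, and -3.36 without Jun-cKO-labelled library 1), and Ddr1, a collagen receptor tyrosine kinase of epithelia, was lower by -1.23 (adjusted p 0.00215). Without Jun-Ctrl library 1, Ddr1 had an adjusted p of 0.0516 and Cd93 of 0.0831, and 1 receptor was lower and 1 higher. With the GC offset Ddr1 had an adjusted p of 0.0511 and 1 receptor was lower.

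Summed levels of the markers of other cells that a lung sort can hold differed in direction by cell type. They were lower under the Jun-cKO label for epithelium, smooth muscle, leukocytes, and Schwann cells and neurons, overlapped for fibroblasts and pericytes, and were higher for mesothelium, chondrocytes and blood endothelium. A summed level follows the most abundant genes of its list. The fibroblast, leukocyte, mesothelium, chondrocyte and blood endothelium lists each held calls in both directions. Counts of calls in the marker lists are to be read against the 22.5% lower and 19.0% higher over all tested genes. Of 17 lung epithelium markers, all tested, 16 were lower and none higher, and their summed level was 1771 and 1877 CPM against 207 and 203 CPM. Cldn18 had 35.7 and 39.9 CPM against 0.590 and 0.295 CPM, and Epcam and Sftpb were at 0 in Jun-cKO-labelled library 2. Of 6 tested smooth muscle markers, 5 were lower and none higher, their summed level was 89.6 and 89.2 CPM against 15.0 and 15.8 CPM, and Lmod1 and Des were at 0 in both Jun-cKO-labelled libraries. The summed level of each collagen class was also lower under the Jun-cKO label, and the part of these cells in that was not tested.

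The summed level of fibroblast and pericyte markers overlapped between the groups. It was 939 and 899 CPM in Jun-Ctrl, against 937 and 967 CPM under the Jun-cKO label, and of 17 tested 6 were lower and 1 higher, with a median of -0.36. Pdgfra, which defines lung fibroblasts, had 2.73 and 3.37 CPM against 2.75 and 2.36 CPM and was not called. Mfap4, Dpt, Meox2, Tcf21, Cspg4 and Eln were lower and Postn was higher, at 183 and 145.3 CPM against 328 and 391 CPM. Most of the summed level of this list came from Eln, Fbn1 and Postn. Of 7 tested leukocyte markers, 6 were lower and 1 higher, with summed levels of 628 and 591 CPM against 447 and 423 CPM. Of 4 tested mesothelium markers 2 were lower and 1 higher, and the summed level was 286 and 264 CPM against 316 and 335 CPM. Msln, which defines mesothelium, had 27.9 and 34.3 CPM against 1.05 and 1.18 CPM, while Gpm6a, the most abundant of the list, was called higher at 235 and 202 CPM against 312 and 331 CPM. Of 3 tested chondrocyte markers 2 were lower and 1 higher, with a summed level of 212 and 209 CPM against 236 and 225 CPM. Hapln1 was the chondrocyte marker called higher, at 107.8 and 97.6 CPM against 165.8 CPM in both Jun-cKO-labelled libraries, and Acan had 21 and 2 counts in Jun-Ctrl against 0 and 0. The chondrocyte markers called lower were Comp, at 99.2 and 108 CPM against 69.3 and 59.5 CPM, and Sox9, at 3.82 and 3.06 CPM against 0.655 and 0 CPM. Schwann cell and neuron markers had 2 of 3 tested lower and none higher, with a summed level of 30.02 and 29.99 CPM against 19.7 and 21.3 CPM, and Sox10 at 0 in every library. Of 8 tested blood endothelium markers 3 were lower and 3 higher, with a summed level of 1064 and 1071 CPM against 1224 and 1218 CPM, and of 8 pan-endothelial markers 1 was lower and 2 were higher. The lower blood endothelium markers were Plvap, at 326 and 336 CPM against 183 and 134 CPM, Cxcl12 and Car4. The higher ones were Ednrb, at 296 and 286 CPM against 545 and 565 CPM, Gpihbp1 and Vwf. Dcn, Lum and Ogn stand in both the proteoglycan and the fibroblast list, and Krt19 in both the epithelium and the mesothelium list. The part of other cell types in the collagen differences was not tested.

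**Figure D4:**
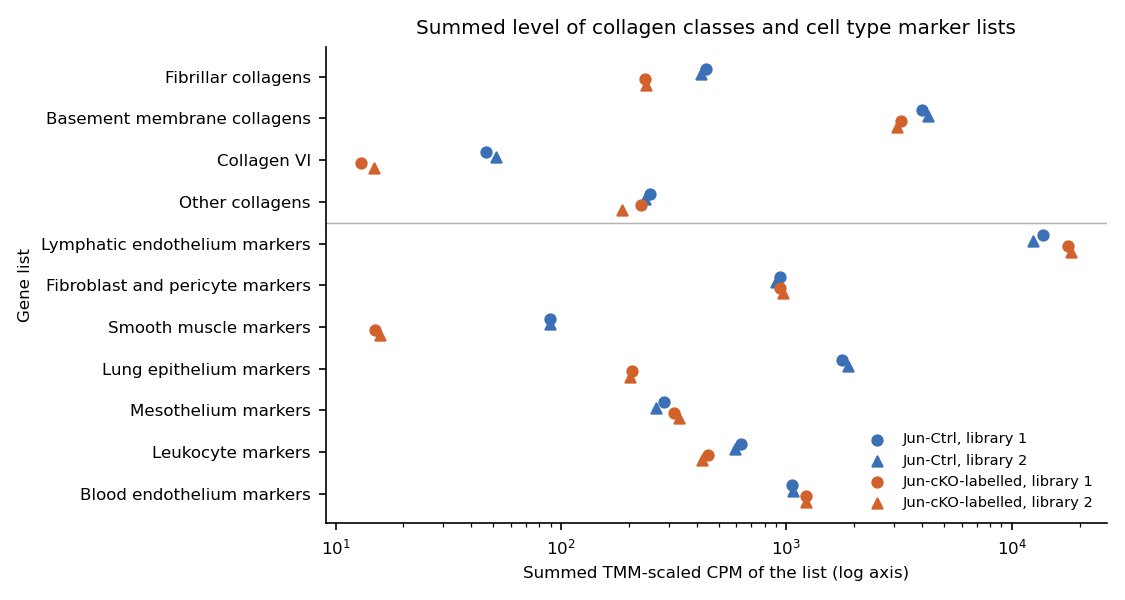
Summed level of each collagen class and of 7 cell type marker lists in each library, in TMM-scaled CPM on a log axis; circles are library 1 and triangles library 2. Every collagen class and the smooth muscle, lung epithelium and leukocyte markers are lower in both Jun-cKO-labelled libraries. The lymphatic endothelium, mesothelium and blood endothelium markers are higher, and the fibroblast and pericyte sums overlap at 899 to 967 CPM.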

How the data were processed

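RNA from sorted lung lymphatic endothelial cells was extracted (PicoPure), amplified (RiboAmp HS PLUS), converted to libraries (NEBNext Ultra II DNA, which leaves strand unmarked) and run on an Illumina HiSeq, per the labels' protocols. The authors deposited 1 table of raw counts per gene, with gene lengths in bases as a further column, used here for levels per kilobase. STAR 2.7.2a, featureCounts 1.6.4, edgeR 3.28.1 and mm10 are listed per the submitters' processing notes. How the reads were assigned to genes, with which annotation and strand setting, is not given in the sources used here. Columns were matched to libraries by title, and library 2 is the one titled with the word replicate.

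All 24421 rows entered filterByExpr. The 12656 genes that passed entered TMM scaling and the edgeR 4.0.16 quasi-likelihood fit (glmQLFit, glmQLFTest, R 4.3.3). Benjamini-Hochberg adjustment was over these 12656 genes, with calls at an adjusted p under 0.05. Total counts were 16037416 and 6483514 for Jun-Ctrl, 15558476 and 6911821 for Jun-cKO, and 3 counts correspond to 0.182, 0.459, 0.197 and 0.443 CPM in that order. Floors and counting intervals cover counting error only, since amplified reads are not independent molecules. Libraries within a group differed by more than read sampling: the median chi-square per gene was 1.27 for Jun-Ctrl and 1.59 for Jun-cKO, where sampling alone gives 0.455. This cannot tell separate sorts from repeat preparations of 1 RNA pool, since either can add spread beyond sampling. The fit was tested on simulated data.

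Gene models and transcript GC content were taken from GENCODE M21 (GRCm38) by symbol, for 96.3% of tested genes. The GC offset is a loess curve per library (span 0.5). Alternatives were other scalings, DESeq2 1.42.0, limma-voom (limma 3.58.1), other filters, the replicate word as a block, each library left out, the GC offset and a minimum log2 fold change of 1. Values by library are given for called collagens averaging 50 counts or more and for the 3 highest per kilobase in each class. Companion lists name up to 4 called genes each, by smallest p. Marker genes and low-count collagens were named after their values were seen. The members and lists were chosen with earlier results of these data known.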

Additional observations from a re-analysis of the deposited data

How the results depend on the processing

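Of the 15 called collagens, 11 kept their direction and their call in every alternative that gave them a value other than the minimum log2 fold change of 1, under which Col3a1, Col5a1 and Col4a5 among them also lost the call. The exceptions were Col4a2 and Col18a1 with the GC offset and Col6a3 and Col26a1 under several settings. No collagen's called value changed sign. The median of all tested genes stayed between -0.06 and 0.02 under every setting. A minimum log2 fold change of 1 left 9 collagens lower and 0 higher (fibrillar 3 lower, basement membrane 2 lower and 0 higher). The number higher was 2, both basement membrane chains, with no filter, with the replicate word as a block, with the GC offset, and with the GC offset and block. The GC offset, with or without the block, left 2 basement membrane chains lower. Among other collagens, 4 were lower with no filter, 1 with the DESeq2 Wald test, with a filter of 50 counts in 2 libraries and with the GC offset, and 0 to 3 when 1 library was left out. Leaving out 1 library gave 10 to 15 collagens lower and 1 higher. The cause was not tested.

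In the companion lists, leaving out 1 library gave 2 to 4 lower and 1 to 3 higher genes for synthesis and folding, 3 to 5 lower and 0 to 3 higher for processing and crosslinking, 1 to 2 lower and 0 to 1 higher for proteoglycans, and 1 to 3 lower and 1 to 3 higher for receptors. The GC offset gave 7 higher for synthesis (8 with the block), 4 higher for processing, 4 lower for proteoglycans (both also with the block) and 1 lower for receptors. Library totals gave 1 higher for synthesis. The filter of 50 counts gave 1 lower for export, 3 for processing, 0 for proteoglycans and 1 for receptors. The DESeq2 Wald test gave 1 higher for processing and 1 lower for proteoglycans. The minimum log2 fold change of 1 left 1 lower and 0 higher for synthesis, 0 higher for export, processing and proteoglycans, and 1 higher for receptors. Over the genes of the full fit, 2843 were lower and 2408 higher, against 1564 higher with the DESeq2 Wald test, 1811 to 2513 lower and 1177 to 2206 higher when 1 library was left out, and 1360 lower and 310 higher at that minimum.

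The libraries share only the word replicate, and deviations of those that share it correlated at 0.0732, so they were not treated as pairs. With the replicate block 14 collagens were lower and 2 higher, the added call being Col4a6 (adjusted p 0.0390). With 1 library left in a group, that library is assumed to vary like those of the other group. The 17 untested collagens, with at most 29 counts in any library, were not tested.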
